A study of Mus musculus with 10 samples.

Results

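Kinesins are motor proteins that use ATP to walk along microtubules or to take microtubule ends apart. Transcripts of the kinesin family were examined in the hearts of mouse embryos that lacked CAR (the coxsackievirus and adenovirus receptor, a cell adhesion protein encoded by Cxadr). Members were all genes of the array whose symbol begins with Kif followed by a number or the letter c and that had at least 1 transcript cluster (a set of probes spread over the exons of a transcript) naming no other gene. This gave 40 genes from 46 clusters, of 19938 genes with a cluster of their own. Where a gene had several clusters, the one with the highest mean signal over all samples was taken. By their known roles, 13 were grouped as mitotic, 17 as transport motors and 8 as kinesins of cilia or of signalling pathways, while Kif12 and the pseudogene Kif4-ps stood apart.

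The samples were 5 CAR KO and 5 WT pools, each of 3 hearts from untreated embryos at E10.5, and each was measured on 1 Affymetrix Mouse Gene 1.0 ST array. CAR KO embryos came from the line B6.Cg-Cxadr tm1/Fgr and lacked the receptor in every cell of the body, not only in the heart, and embryos were obtained by breeding CAR +/- mice. The labels do not say whether the pools came from separate litters, so p-values measure only the spread between these samples. Values are log2 signals, and every difference is CAR KO minus WT. Each is a mean over cell types, and fewer cells of a type cannot be told apart from less RNA per cell.

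Mitotic kinesins build, align and take down the spindle and then close the midbody between daughter cells. Transport kinesins carry vesicles, mitochondria and endosomes towards microtubule plus ends, apart from the minus-end motors Kifc2 and Kifc3. A further set works in cilia or in signalling pathways, such as Kif7, which tunes Hedgehog signalling. Heterotrimeric kinesin-II (Kif3a, Kif3b and the associated protein Kifap3) drives anterograde intraflagellar transport in cilia. Its motor subunits Kif3a and Kif3b were counted here as transport kinesins. Cardiomyocytes of the embryo still divide, and the pooled hearts held other cell types too. Which cells made the spindle kinesins and the carriers read here was not tested.

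The letters around the transcription starts were searched for motifs of cell cycle genes. Many genes used in the G2 and M phases carry a CHR element, whose core reads TTTGAA, close to the start, often downstream of CCAAT boxes. Each window below runs from 100 bases before to 25 bases after the annotated start (RefSeq sequence, GRCm38.p6), read on the strand of the gene, with matches to TTTGAA or CCAAT on either strand in capitals. Kif11, Kif23, Kif4, Kif22 and Kif18b are spindle and chromosome motors shown because they hold both motifs in this window, as not all mitotic kinesins do, Kif3b is a transport motor with a CCAAT match alone, and Kif26a is the kinesin with the smallest p between genotypes.
Kif11 (chr19:37376282-37376406, plus strand): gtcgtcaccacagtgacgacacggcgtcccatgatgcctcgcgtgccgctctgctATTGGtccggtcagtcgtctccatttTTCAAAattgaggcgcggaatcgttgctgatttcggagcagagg
Kif23 (chr9:61946775-61946899, minus strand): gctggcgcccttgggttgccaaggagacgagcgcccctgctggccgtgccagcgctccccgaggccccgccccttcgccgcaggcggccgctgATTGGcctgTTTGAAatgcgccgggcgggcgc
Kif4 (chrX:100625965-100626089, plus strand): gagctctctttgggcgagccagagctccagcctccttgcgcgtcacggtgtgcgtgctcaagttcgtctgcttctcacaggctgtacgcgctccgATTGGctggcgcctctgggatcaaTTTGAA
Kif22 (chr7:127042396-127042520, minus strand): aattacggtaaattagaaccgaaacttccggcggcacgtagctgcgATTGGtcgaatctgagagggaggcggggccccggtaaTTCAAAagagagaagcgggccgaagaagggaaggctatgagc
Kif18b (chr11:102925100-102925224, minus strand): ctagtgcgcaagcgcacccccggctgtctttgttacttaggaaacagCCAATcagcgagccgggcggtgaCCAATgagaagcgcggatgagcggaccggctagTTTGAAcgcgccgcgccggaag
Kif3b (chr2:153291316-153291440, plus strand): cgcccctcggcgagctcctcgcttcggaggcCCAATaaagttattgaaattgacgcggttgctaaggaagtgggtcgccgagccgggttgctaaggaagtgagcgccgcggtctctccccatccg
Kif26a (chr12:112146108-112146232, plus strand): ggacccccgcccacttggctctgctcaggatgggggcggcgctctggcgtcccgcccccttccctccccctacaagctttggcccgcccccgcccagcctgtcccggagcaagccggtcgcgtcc

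Over a longer window, from 250 bases before to 50 after the start, 31 of the 40 members had a promoter sequence to search. TTTGAA or its reverse complement TTCAAA was found in 9 of 12 mitotic kinesins (75%), in 1 of 11 transport kinesins (9.09%) and in 2 of 7 kinesins of cilia or signalling (28.6%), against 20.2% of all 27025 genes searched. CCAAT or its reverse complement ATTGG was found in 7 of 12 mitotic kinesins (58.3%), 3 of 11 transport kinesins (27.3%), 4 of 7 kinesins of cilia or signalling (57.1%) and 41.1% of all genes. Both motifs were present in 6 mitotic kinesins (50%), in 0 transport kinesins, in 2 kinesins of cilia or signalling (28.6%), Kif26b and Kif27, and in 7.97% of all genes. These counts took matches at any position and in any order. Relative to the start, TTTGAA of Kif14 lay at -228, ahead of its CCAAT at -92, and TTTGAA of Kif2c lay at -103. For Kif14, Kif2c, Kif21a, Kif26a, Kif27 and Kif3a, the window searched lay wholly inside the RefSeq span of the gene. The letters at the upstream end of those genes were therefore not searched. The mitotic kinesins Kif18a and Kif2a held neither motif, and Kif2b held CCAAT alone. No test was made of the differences between classes. A CCAAT that runs into TTTGAA would share its last T with it. The transport gene with a TTTGAA match was Kif1a, in the window of another of its annotated starts.

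Among genes that work with these motors, TTTGAA was found in 12 of 19 genes for spindle and midbody partners (63.2%), such as Aurkb and Plk1. In the transport list of cargo adaptors, light chains and dynein subunits, it was found in 2 of 16 genes (12.5%). CCAAT was found in 13 of the spindle and midbody partners (68.4%) and in 7 genes of the transport list (43.8%), and both motifs in 11 (57.9%) and in 1 (6.25%). Base composition was not matched between these gene sets, and a match is a description of the letters, not evidence that a factor binds there.

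**Figure D1:**
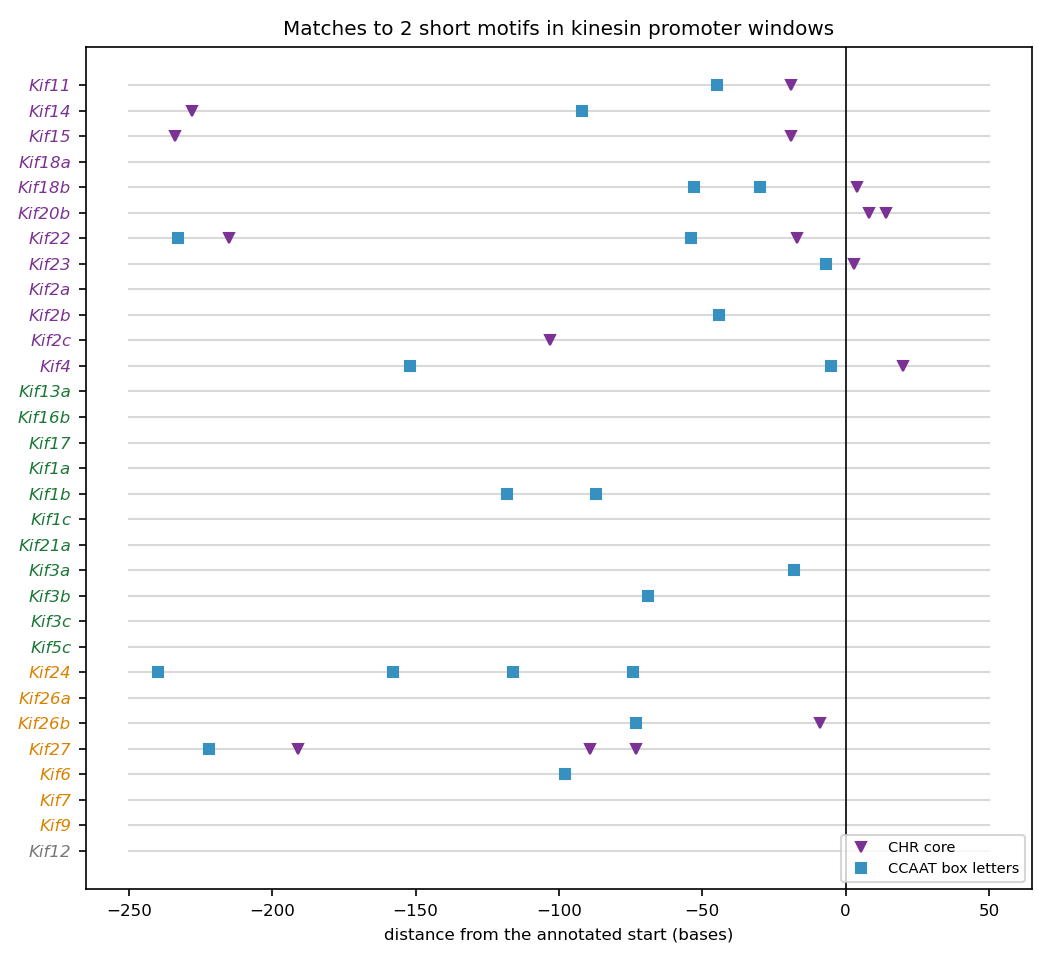
Positions of the CHR core letters (TTTGAA, triangles) and of CCAAT (squares), on either strand, in the first annotated promoter window of each of 31 kinesin genes, plotted as the distance in bases from the annotated start (vertical line), with gene names coloured by class (mitotic at the top, then transport, then cilium or signalling, then Kif12). Triangles appear in 9 of 12 mitotic rows and in no transport row, since the Kif1a match lies in another of its windows.

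The genotype labels were checked first. Cxadr signals were 6.69, 6.56, 6.37, 6.47 and 6.23 in CAR KO samples 1 to 5, against 8.28, 8.25, 8.46, 8.66 and 8.24 in WT samples 1 to 5. All CAR KO samples lay below all WT samples, and the difference was -1.91 (SE 0.10, limma adjusted p = 1.40e-05). This was the only cluster of 28944 that passed an adjusted p of 0.05, a share of 0.00345%. Signal was called above background where its mean over 10 samples exceeded 6.51, the 95th percentile of 1210 clusters of odorant and vomeronasal receptors, which are not expected in heart. Cxadr itself was below this level in 3 of the 5 CAR KO samples, so its difference can understate the loss. All 16 cardiomyocyte marker genes lay above this level, array medians were between 7.65 and 7.73, and samples correlated with each other at r between 0.987 and 0.998.

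Kinesin transcripts of CAR KO hearts lay close to their WT levels. None of the 40 kinesins passed an adjusted p of 0.05 in limma or in the methods' t-test, and limma's adjusted p was 1.0 for each. By either test 1 kinesin, Kif26a, had an unadjusted p under 0.05, a threshold that 2.4% of all clusters passed in limma. In no kinesin were the 5 CAR KO samples separated from the 5 WT samples, which occurred in 0.359% of all clusters. All 40 kinesins had a 95% confidence interval inside 1.5-fold in either direction, as did 97.3% of all clusters and 97.1% of those above background. For 22 of 40 it was inside 1.2-fold, as for 60.6% of all clusters and 62.8% of those above background. The widest intervals belonged to Kif18a, with an upper limit of 0.48 on the log2 scale, and to Kif5c, with an upper limit of 0.47. Signals of 37 kinesins were above background, and those of Kif2b, Kif27 and Kif4-ps were not, and differences of dim clusters are compressed on arrays.

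**Figure D2:**
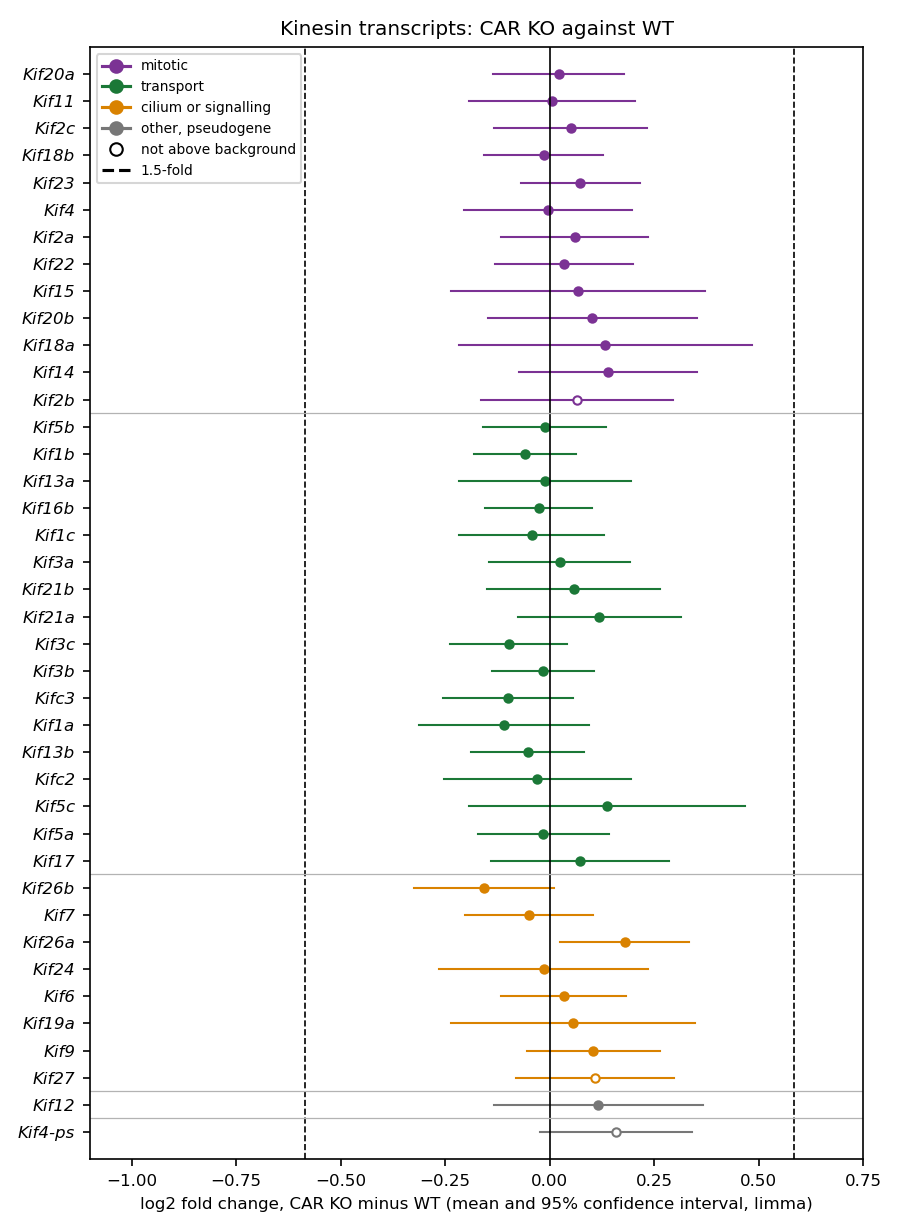
Log2 difference (CAR KO minus WT) for each of the 40 kinesins, with limma's 95% confidence interval, coloured by class and ordered within a class by mean signal, with open circles for the 3 genes not above background and dashed lines at 1.5-fold. Every interval lies inside the dashed lines, and that of Kif26a (0.03 to 0.33) is the only one that does not span 0.

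Among the 13 mitotic kinesins, 11 had a higher mean in CAR KO and 2 a lower one, while the mean was higher in CAR KO for 56.1% of all clusters and 51.9% of those above background. None had an unadjusted p under 0.05. Their differences ran between -0.01 and 0.14, with a median of 0.06, and the median over all clusters was 0.01. The group with the higher mean depended on 1 sample: without CAR KO sample 5, 4 were higher and 9 lower, and the median was -0.02.

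Kif20a, which brings the chromosomal passenger complex to the central spindle, gave 11.55, 11.38, 11.63, 11.48 and 11.76 in CAR KO samples 1 to 5, against 11.59, 11.48, 11.60, 11.53 and 11.49 in WT. Kif11 (Eg5), the motor that pushes spindle poles apart, gave 11.15, 10.90, 11.27, 11.03 and 11.44 in CAR KO, against 11.19, 11.07, 11.18, 11.20 and 11.13 in WT. CAR KO sample 5 was the highest of all samples and CAR KO sample 2 the lowest for both genes, with the 5 WT samples close together in between. The differences were 0.02 (95% interval -0.14 to 0.18) for Kif20a and 0.0046 (-0.19 to 0.20) for Kif11.

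Kif2c (MCAK), a depolymerase that corrects faulty attachments at centromeres, had the same highest and lowest samples, with 10.98, 10.91, 11.15, 10.95 and 11.35 in CAR KO and 11.00, 10.92, 11.07, 11.04 and 11.05 in WT. Its difference was 0.05 (-0.13 to 0.23), and without CAR KO sample 5 those of Kif20a, Kif11 and Kif2c were -0.03, -0.07 and -0.02. Kif14, a motor of the midbody, had the smallest p of the mitotic class. Its signals were 8.80, 8.59, 8.84, 8.69 and 9.16 in CAR KO, against 8.59, 8.58, 8.81, 8.74 and 8.65 in WT, and again CAR KO sample 5 stood above the rest. The difference of 0.14 (-0.07 to 0.35, unadjusted p = 0.179, limma adjusted p = 1.0) did not exceed the spread between samples.

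Kif23 (MKLP1), the motor subunit of centralspindlin, gave 10.66, 10.59, 10.85, 10.72 and 10.76 in CAR KO, against 10.69, 10.60, 10.76, 10.63 and 10.53 in WT. CAR KO sample 3 was its highest sample and WT sample 5 its lowest, and the difference was 0.07 (-0.07 to 0.22). The chromokinesins Kif4 and Kif22, which act on chromosome arms, differed by -0.0042 and 0.03. Kif18a, which limits kinetochore microtubule length, and Kif15, a spindle motor that can stand in for Kif11, spread most over the samples of this class, with residual SDs of 0.29 and 0.25, against 0.09 for Kif18b, which shortens astral microtubules. Kif2b lay below background, with a mean of 5.97.

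The minus-end spindle motor Kifc1 was not a member, because its cluster also names its near copy Kifc5b and their transcripts cannot be told apart. That shared cluster gave 9.71, 9.72, 9.73, 9.80 and 9.73 in CAR KO, against 9.76, 9.60, 9.68, 9.65 and 9.63 in WT, a difference of 0.07 (-0.04 to 0.19). Each CAR KO sample was above 4 of the 5 WT samples, and only CAR KO sample 4 was above WT sample 1.

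CAR KO sample 5 was the highest of the 10 samples for 10 of the 13 mitotic kinesins, and it was the highest for 15.7% of all clusters and 19.4% of those above background. CAR KO sample 3 was highest for Kif23 and Kif2a, and CAR KO sample 2 for the dim Kif2b. Averaged over the 13 genes as a deviation from the mean over samples, CAR KO samples 1 to 5 stood at -0.04, -0.13, 0.12, -0.08 and 0.28, against -0.02, -0.12, 0.04, -0.02 and -0.02 in WT. The CAR KO samples therefore held both the highest and the lowest value. In CAR KO sample 5 the largest single deviations were those of Kif18a (0.66), Kif15 (0.55), Kif20b (0.46) and Kif14 (0.41).

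**Figure D3:**
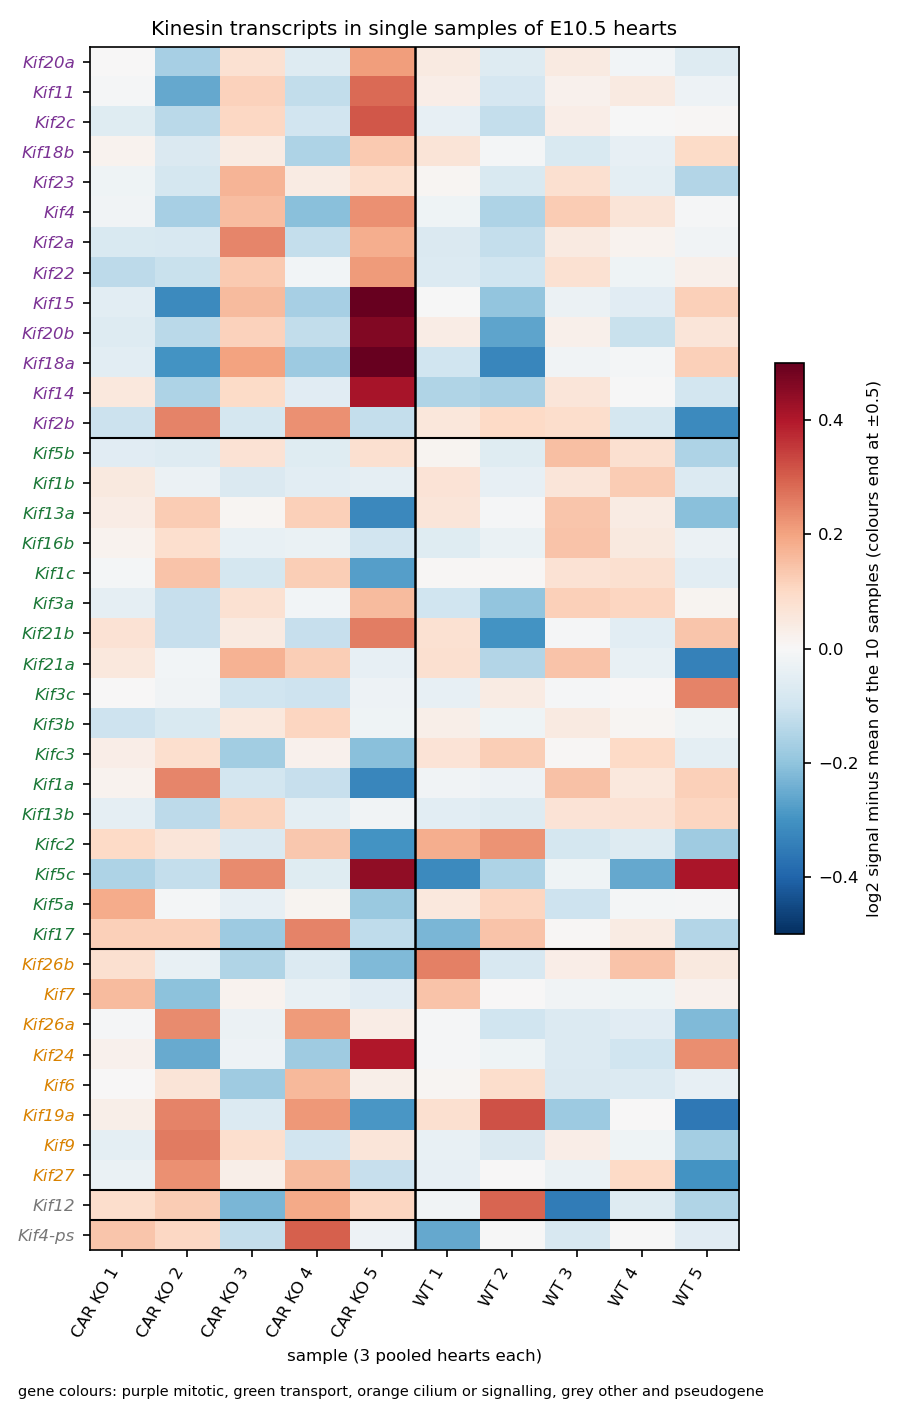
Deviation of each kinesin (rows, grouped by class) in each sample (columns, CAR KO samples 1 to 5 and then WT samples 1 to 5) from that gene's mean over the 10 samples, in log2 units. The mitotic rows are darkest in CAR KO sample 5, which was highest for 10 of 13 of them. No column of the transport rows is high or low throughout, but CAR KO sample 5 was lowest for 7 of 17 and highest for 3.

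Partners of these motors were also high in this sample. All 22 genes listed for spindle and midbody partners were above background, 14 were higher and 8 lower in CAR KO (median 0.02), none had an unadjusted p under 0.05, and CAR KO sample 5 was highest for 13. Cenpe, a kinesin-like motor of the kinetochore whose symbol falls outside the rule, gave 9.99, 9.74, 10.06, 9.89 and 10.33 in CAR KO, against 10.10, 9.81, 10.02, 9.90 and 10.06 in WT. Racgap1, the partner of Kif23 in centralspindlin, stayed between 11.49 and 11.58 in CAR KO and between 11.45 and 11.56 in WT. Of 15 proliferation markers, 9 were higher and 6 lower in CAR KO (median 0.0079), and CAR KO sample 5 was highest for 11.

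Other transcripts also set CAR KO sample 5 apart. It was highest for 14 of 18 liver and yolk sac genes, of which 16 were above background, and their mean deviation was 0.40, -0.39, -1.08, -0.94 and 1.78 in CAR KO samples 1 to 5, against -0.65, 0.89, -0.45, -0.49 and 0.94 in WT. WT samples 2 and 5 had the next highest mean deviations for liver transcripts, below that of CAR KO sample 5. Their mean deviations for mitotic kinesins were -0.12 and -0.02. Over 16 cardiomyocyte markers CAR KO sample 5 had the lowest mean deviation, -0.30, against -0.19 for WT sample 5 and between 0.0020 and 0.12 for the remaining samples. Over 12 endothelial markers it also had the lowest, -0.28. Over 12 markers of cushion mesenchyme it had the highest mean deviation, 0.34, with WT sample 5 next at 0.23. Of these 12 cushion markers, CAR KO sample 5 was the highest sample for 5. With CAR KO sample 5 and WT samples 2 and 5 left out, 3 mitotic kinesins were higher and 10 lower in CAR KO, with a median of -0.04. The part that cell composition plays in the kinesin signals was not tested.

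**Figure D4:**
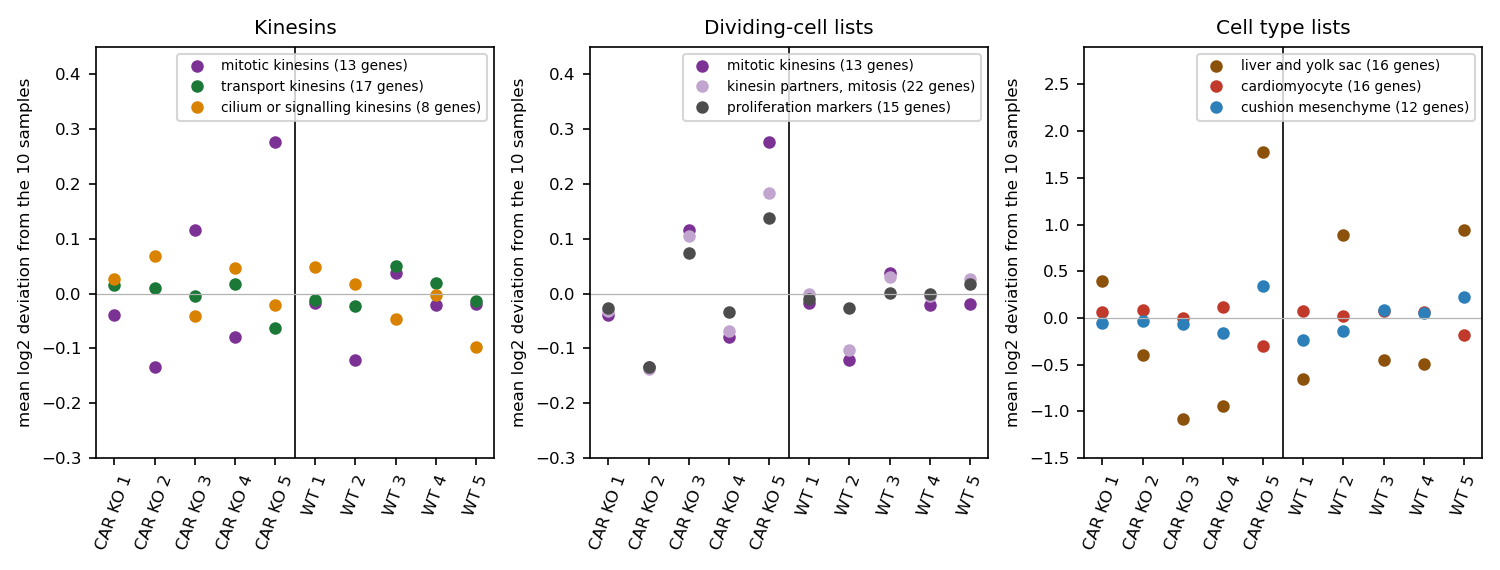
Mean deviation (log2) of the kinesin classes and of marker lists in each sample, with CAR KO samples left of WT samples. CAR KO sample 5 lies highest for mitotic kinesins (0.28), proliferation markers (0.14) and liver genes (1.78) and lowest for transport kinesins (-0.06) and cardiomyocyte markers (-0.30).

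All 17 transport kinesins were above background. Of these, 5 had a higher and 12 a lower mean in CAR KO, none had an unadjusted p under 0.05, and the median difference was -0.02, within a range of -0.11 to 0.14. Without CAR KO sample 5, 8 were higher and 9 lower, with a median of -0.0058. Kif5b, the heavy chain of conventional kinesin made in all tissues, gave 11.45, 11.44, 11.58, 11.44 and 11.58 in CAR KO, against 11.52, 11.45, 11.66, 11.58 and 11.35 in WT. The WT samples held both its highest and its lowest value, and the difference was -0.01 (-0.16 to 0.14).

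Kif1b, which carries mitochondria and synaptic vesicle precursors, gave 10.52, 10.44, 10.40, 10.42 and 10.43 in CAR KO, against 10.54, 10.43, 10.53, 10.60 and 10.40 in WT, a difference of -0.06 (-0.18 to 0.06). Its residual SD of 0.07, like that of Kif3b, was the smallest of the family. Kif13a, a carrier of endosomes, gave 10.22, 10.31, 10.19, 10.30 and 9.86 in CAR KO, against 10.24, 10.17, 10.32, 10.22 and 9.97 in WT. Its lowest samples were CAR KO sample 5 and WT sample 5, and its difference was -0.01 (-0.22 to 0.20), or 0.07 without CAR KO sample 5. The same samples had the lowest mean deviations for cardiomyocyte markers and for endothelial markers (-0.28 and -0.13). They were also lowest for the genes of multiciliated cells above background (-0.13 and -0.12). A link of any of these lists to Kif13a was not tested.

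Kif3c, which pairs with Kif3a mostly in neurons, had the smallest p of the carriers. Its signals were 8.75, 8.73, 8.65, 8.65 and 8.72 in CAR KO, against 8.71, 8.79, 8.74, 8.75 and 8.999 in WT. WT sample 5 alone stood apart, and it was also the sample with the highest mean deviation, 0.27, over the 12 neuronal and neural crest markers above background. Not all of these markers were high in WT sample 5. It also had the highest mean deviation, 0.50, over the 10 macrophage markers above background. A link of either list to Kif3c was not tested. The difference of -0.10 (-0.24 to 0.04, unadjusted p = 0.149, limma adjusted p = 1.0) became -0.05 without WT sample 5. The other subunits of kinesin-II, Kif3a and Kif3b, differed by 0.02 and -0.02.

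Kifc3, a minus-end motor at adherens junctions and the Golgi, gave 8.73, 8.78, 8.52, 8.71 and 8.48 in CAR KO, against 8.76, 8.82, 8.70, 8.79 and 8.64 in WT. CAR KO samples 3 and 5 were its lowest, the other CAR KO samples lay among WT, and the difference was -0.10 (-0.25 to 0.06). Further carriers with roles in neurons gave no common direction. Kif1a, Kif5a and Kifc2 differed by -0.11, -0.02 and -0.03. Kif5c, Kif17 and Kif21b differed by 0.14 (-0.19 to 0.47), 0.07 and 0.06. Kif5c was high in CAR KO sample 5 (7.85) and WT sample 5 (7.81), against 7.25 to 7.64 in the other CAR KO samples and 7.08 to 7.38 in the other WT samples. Cargo adaptors, light chains and dynein subunits were as close, with 6 of 18 higher and 12 lower in CAR KO, a median of -0.02 and 0 with an unadjusted p under 0.05 in limma. Among them Kifbp, which binds kinesin motors, differed by -0.02, and the mitochondrial adaptor Trak2 by -0.15 (-0.31 to 0.0084).

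The 8 kinesins of cilia and signalling held both the highest and the lowest difference of the family. Of these, 5 were higher and 3 lower in CAR KO, with a median of 0.04. Kif26a, an atypical kinesin without ATPase activity that restrains GDNF-Ret signalling in enteric neurons, gave 8.46, 8.70, 8.44, 8.68 and 8.50 in CAR KO samples, or 8.56 ± 0.13 (SD, n = 5), against 8.46, 8.37, 8.40, 8.41 and 8.24 in WT samples, or 8.38 ± 0.08 (SD, n = 5). CAR KO samples 2 and 4 stood clearly above WT, while CAR KO samples 1 and 3 were below the highest WT sample. The difference was 0.18 (SE 0.07, 95% interval 0.03 to 0.33), with an unadjusted p of 0.0260 and an adjusted p of 1.0 in limma, and a p of 0.0238 in a two-sided exact permutation test. In limma, 0.978% of all clusters were higher in CAR KO at an unadjusted p under 0.05. Without CAR KO sample 2, CAR KO sample 4 or WT sample 5, the unadjusted limma p of Kif26a was 0.0671, 0.0657 and 0.0644, and it was 0.113 with CAR KO sample 5 and WT samples 2 and 5 all left out. Over all clusters, the median deviation from the mean over samples was 0.02 and 0.04 in CAR KO samples 2 and 4, and between -0.05 and 0.03 in the other samples. With each array centred on its median, the difference of Kif26a was 0.17. Ret, the receptor named above, had a mean of 6.80, close to background, and differed by 0.0031 (-0.19 to 0.20).

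Kif26b, its paralogue, which is needed for adhesion of kidney mesenchyme and is degraded on Wnt5a-Ror signalling, had a lower mean in CAR KO. Its signals were 10.58, 10.46, 10.35, 10.43 and 10.28 in CAR KO, against 10.75, 10.42, 10.53, 10.64 and 10.54 in WT. CAR KO samples 3 and 5 were lower than all WT samples and WT samples 1 and 4 higher than all CAR KO samples, with overlap between. The difference was -0.16 (-0.32 to 0.0095), with an unadjusted p of 0.0622 and an adjusted p of 1.0 in limma. The unadjusted limma p was between 0.0256 (without WT sample 2) and 0.158 (without WT sample 1) when 1 sample was left out, and under 0.05 also without CAR KO sample 1 (0.0274). With CAR KO sample 5 and WT samples 2 and 5 all left out, the unadjusted limma p was 0.0434. With the sample number as a block it was 0.0291. It was under 0.05 in 4 of the 21 settings run. The other cluster of the gene gave -0.09 (-0.28 to 0.09). Both paralogues thus lay inside 1.5-fold, with opposite signs.

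Kif7, the ciliary-tip regulator of Hedgehog signalling, gave 9.02, 8.66, 8.88, 8.82 and 8.80 in CAR KO, against 9.001, 8.86, 8.84, 8.84 and 8.88 in WT. CAR KO samples held both its highest and its lowest value, and the difference was -0.05 (-0.20 to 0.10). Kif24, a depolymerase of centrioles that restrains cilium assembly, differed by -0.01 (-0.26 to 0.24) and was highest in CAR KO sample 5 (8.72) and WT sample 5 (8.56). Kif6, Kif9, Kif19a and Kif27, all linked to motile cilia, differed by 0.03, 0.10, 0.06 and 0.11. Their signals were near background, between 6.30 and 7.23 on average, and 6 of 12 genes of multiciliated cells, Dnah5 among them, were not above it. Of the 19 intraflagellar transport genes, all above background, 11 were higher and 8 lower in CAR KO with a median of 0.0031, and 0 had an unadjusted p under 0.05 in limma.

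Kif12, a kinesin of kidney, liver and pancreatic beta cells, gave 6.61, 6.65, 6.29, 6.71 and 6.63 in CAR KO, against 6.50, 6.81, 6.16, 6.45 and 6.37 in WT. Its mean of 6.52 lay at the background level, and the difference was 0.12 (-0.13 to 0.37). Kif4-ps, a pseudogene of Kif4, gave 6.47, 6.43, 6.21, 6.63 and 6.30 in CAR KO, against 6.07, 6.33, 6.25, 6.33 and 6.27 in WT. CAR KO samples 1, 2 and 4 were above all WT samples, the other CAR KO samples were among them, and the difference was 0.16 (-0.02 to 0.34). Since its sequence resembles Kif4, whose signal could cross-hybridise, this cluster is uncertain as a readout of its own transcript. Kif4 itself gave 10.11, 9.96, 10.28, 9.92 and 10.35 in CAR KO, against 10.10, 9.97, 10.25, 10.19 and 10.12 in WT. Cross-hybridisation was not tested.

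**Figure D5:**
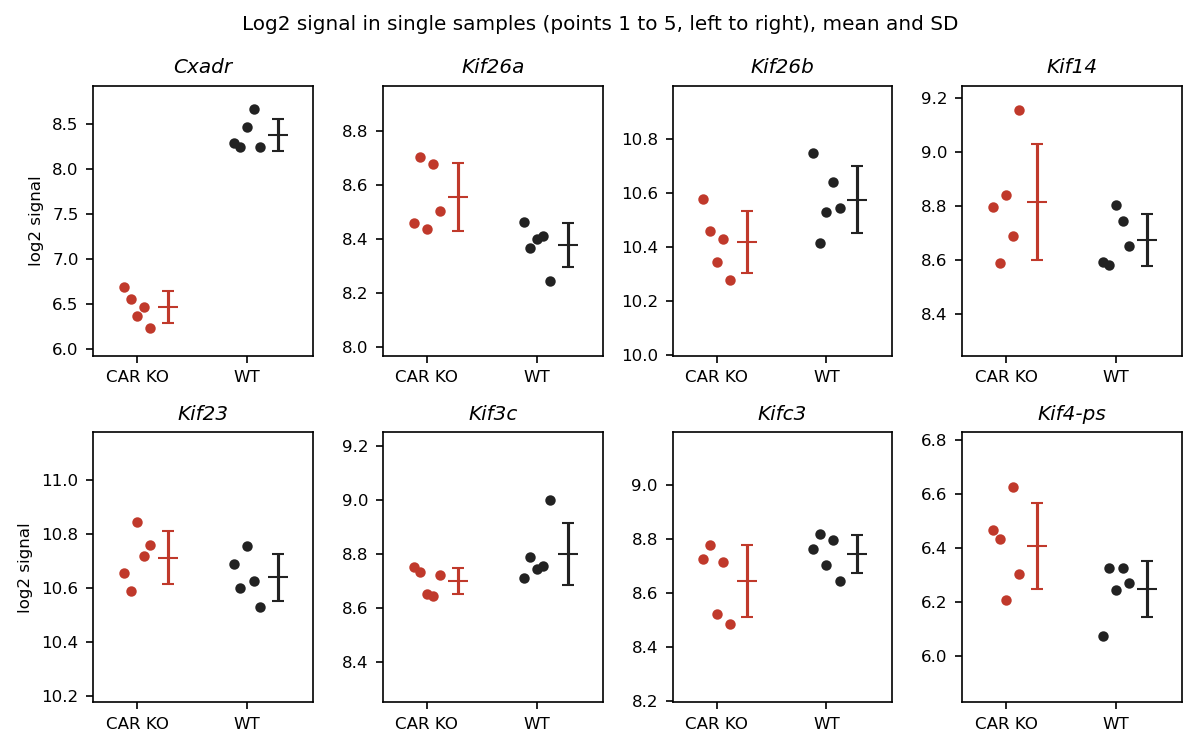
Log2 signals of Cxadr and of 7 kinesins, with CAR KO samples (left) and WT samples (right) as points and the mean ± SD of each group, n = 5, on an axis that is wider for Cxadr than for the kinesins. Of these 8 genes only Cxadr (6.46 ± 0.17 in CAR KO and 8.38 ± 0.18 in WT) has groups that do not overlap.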

How the data were processed

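Total RNA of pooled E10.5 hearts was hybridised to Affymetrix Mouse Gene 1.0 ST arrays. The values are log2 signals as deposited by the authors, for 35556 rows and 10 samples. MAS5 is the tool given in the submitters' processing notes, and the normalization was not given in the sources used here. Samples were grouped by the genotype in their labels. Removal of 6612 control rows, recognised by identifier, left 28944 transcript clusters, of which 21789 name 1 gene, 1621 several and 5534 none here. Gene symbols are those of the platform annotation, and all 40 kinesins matched a RefSeq gene by Entrez identifier.

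CAR KO and WT were compared with limma 3.58.1 (R 4.3.3; lmFit and eBayes) over all 28944 clusters, with Benjamini-Hochberg adjustment. The log2 values were used as deposited. The script was tested on simulated data. Values in every sample are given for Cxadr, for kinesins with an unadjusted p under 0.05, for the 3 with the highest mean and the 2 with the lowest p in each class, and for any whose groups do not overlap. Per-sample values of other genes were chosen after their values were seen. The kinesins, their classes and all gene lists were chosen with earlier results of these data known. Promoters are RefSeq sequences of GRCm38.p6. Protein sequences were not used here, so a planned search for the motor's nucleotide-binding stretch was not run. The comparison was repeated after centring arrays on their medians or quantile normalization, with clusters above the 40th percentile of signal, with clusters naming 1 gene, with a robust prior and intensity trend, with array weights, with a block for the sample number, with the methods' t-test, with the mean of a gene's clusters, and without single samples or the 3 richest in liver transcripts. The number of arrays, 5 per genotype, limits the precision.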

Additional observations from a re-analysis of the deposited data

Results flagged for a closer look

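In each genotype, a kinesin or a class mean was looked at again where 1 of the 5 samples stood far from the other 4, that is, where its gap to the nearest sample exceeded 0.71 of the range of the group (Dixon's test at the 95% level). Of 88 groups examined, 6 met this rule, and chance gives about 1 in 20, or 4.4. Kif13a, the endosome carrier, was low in CAR KO sample 5 (ratio 0.740), and the mean over the transport kinesins was low in the same sample (0.729). Kif12 was low in CAR KO sample 3 (0.761). Among WT samples, Kif24 (0.720) and Kif3c (0.720) were high in sample 5, and Kif7 (0.725) was high in sample 1. No cause was tested for any of these.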

How the results depend on the processing

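The count of kinesins with an adjusted p under 0.05 was 0 under all alternatives run, with a smallest adjusted p of 0.775 (limma with array weights, for both Kif26a and Kif4-ps, whose unadjusted p were 0.0512 and 0.0356), and Cxadr kept its call, with differences between -1.97 and -1.84. The count of kinesins with an unadjusted p under 0.05 ran between 0 and 2 when 1 sample was left out (0 without CAR KO sample 4 or WT sample 5, and 2 without CAR KO sample 1, CAR KO sample 3 or WT sample 2), and without CAR KO sample 2 the gene was Kif1a. Over all 28944 clusters, the count under the same threshold ran between 411 (without WT sample 4) and 1029 (without CAR KO sample 5). The sample number as a replicate block gave 3 kinesins (Kif26a, Kif26b and Kif5c). With that block 1304 of all 28944 clusters passed the threshold, against 696 without it and with all samples. Deviations of same-numbered samples correlated at 0.20, 0.47, 0.33, 0.07 and 0.56, and 4 of 5 CAR KO samples were closest to the WT sample of their number, a hint of pairing from the data. The samples were not treated as pairs, because the labels do not say what a number marks and 1 correlation was under 0.1. Kif26a had an unadjusted p under 0.05 in 16 of the 21 settings, the one reported included. Leaving out 1 sample moved the median of the mitotic kinesins between -0.02 and 0.09, that of the transport kinesins between -0.04 and -0.0058 and that of the kinesins of cilia or signalling between 0.02 and 0.08. The last of these medians was -0.015 with the filter at the 40th percentile, which left 5 of its 8 genes. Array weights, which gave CAR KO sample 5 the lowest weight (0.33), gave 7 mitotic kinesins higher and 6 lower in CAR KO, against 11 and 2 without weights. Differences close to 0 changed sign. Kif11 was -0.0018 after centring on array medians. With array weights, Kif11 was -0.043, Kif20a -0.0070, Kif2c -0.018 and Kif7 0.032. Without CAR KO sample 5 and WT samples 2 and 5, Kif11 was -0.10, Kif20a -0.064 and Kif2c -0.043. With 1 sample left out, Kif11 ran between -0.065 and 0.070, Kif13a between -0.064 and 0.068, Kif5b between -0.052 and 0.024, Kif20a between -0.028 and 0.066 and Kif2c between -0.021 and 0.090. The cause of these changes was not tested. Signals near background (Kif2b, Kif27, Kif4-ps, Kif12) limit what can be read from those genes.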

Other observations

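Apart from Kif26b, 5 kinesins had another cluster on the array. Those of Kif1c, Kif6 and Kif7 lay above background and differed between CAR KO and WT by 0.09 (95% interval -0.13 to 0.30), -0.02 (-0.23 to 0.18) and 0.03 (-0.12 to 0.18). Those of Kif14 and Kif4-ps, with means of 5.75 and 5.66, lay below it and differed by -0.05 and 0.02. For Kif14, Kif1c, Kif6 and Kif7 the sign was opposite to that of the brighter cluster, and all intervals spanned 0.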
